A study of Mus musculus with 10 samples.

Results

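Among 27854 regions carrying dimethylated lysine 4 of histone H3 (H3K4me2) in mouse lymphocytes, 224 regions (0.804% of all merged regions) had a called peak in both libraries of naive T cells and both of T helper 2 (Th2) cells, and in neither library of innate lymphoid cells of group 2 (ILC2s). They were selected on those calls: peaks of the 6 libraries were merged where they lay within 500 bp, and each region was kept or dropped by which libraries had a peak in it. The absence from ILC2s is therefore how the regions were chosen and not a finding. Peak lists of sorted spleen and thymus CD4+ cells took no part in the choice and were read at the same regions to tell those called throughout the T lineage from those called in peripheral cells only.

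The series comprised 10 mouse samples, of which the 8 H3K4me2 peak lists were used here. All came from lymphocyte fractions of Gata3-YFP/YFP mice, which carry a yellow fluorescent reporter of Gata3, with airway inflammation, sorted by flow cytometry with antibodies and the reporter. No further treatment and no age was stated for any group. Naive T cells, Th2 cells and ILC2s gave 2 libraries each, replicate 1 from bronchoalveolar lavage and replicate 2 from the mediastinal lymph node, so the spread within a cell type also holds the site. CD4+ lymphocytes of spleen and of thymus gave 1 library each and have no replicate. How cells called naive T were gated was not stated, nor whether libraries shared animals, and p-values below measure only the spread between these samples, which may be technical. Wherever a pair of values is given for a cell type, the lavage library comes before the lymph node library. Coordinates are those of mm10.

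H3K4me2 marks promoters and enhancers that are active or poised in a cell. ILC2s are tissue lymphocytes that make type 2 cytokines without an antigen receptor, whereas Th2 cells make the same cytokines under control of the T cell receptor, CD4 and costimulatory receptors. Naive CD4+ T cells leave the thymus, where the receptor is assembled and CD4 or CD8 is chosen, and circulate through spleen and lymph nodes.

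Of the 224 regions, 28 overlapped the promoter window of a gene, running from 250 bases before to 50 bases after a transcription start. They held 35 windows of 29 genes, 17 of them protein-coding. Beside the genes printed below these were Ifi214, Itgb8, Angptl2, Slc9b2, Mcoln3, Fgr, Btbd8, Pitpnm2, Pou2af1, Tmie and Als2cl. The windows of 6 genes described below are printed from RefSeq (GRCm38.p6, the assembly of mm10) to show which start sites lay inside a region called in T cells and not in ILC2s: Cd247, Themis and Slamf1, called also in spleen and thymus, Izumo1r, far lower in thymus than in spleen, and Fasl and Bcl2a1b, not called in thymus. Capitals mark matches, on either strand, to AGGAAG, a core recognised by ETS factors, or to TGTGGT, a core recognised by RUNX factors. Each runs 5′ to 3′ along the gene.
Cd247 (chr1:165788431-165788730, plus strand): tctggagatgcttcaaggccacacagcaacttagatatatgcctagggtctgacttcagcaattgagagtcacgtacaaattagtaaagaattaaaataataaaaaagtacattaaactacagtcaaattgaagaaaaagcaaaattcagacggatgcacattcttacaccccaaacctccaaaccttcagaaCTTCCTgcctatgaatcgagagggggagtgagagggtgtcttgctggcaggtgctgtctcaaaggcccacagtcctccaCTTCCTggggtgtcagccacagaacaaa
Themis (chr10:28668110-28668409, plus strand): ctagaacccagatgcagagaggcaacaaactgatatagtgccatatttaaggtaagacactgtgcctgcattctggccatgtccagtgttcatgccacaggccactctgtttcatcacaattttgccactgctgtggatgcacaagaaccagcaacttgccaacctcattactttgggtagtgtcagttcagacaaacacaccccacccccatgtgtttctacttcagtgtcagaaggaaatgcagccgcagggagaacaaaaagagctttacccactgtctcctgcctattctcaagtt
Slamf1 (chr1:171766882-171767181, plus strand): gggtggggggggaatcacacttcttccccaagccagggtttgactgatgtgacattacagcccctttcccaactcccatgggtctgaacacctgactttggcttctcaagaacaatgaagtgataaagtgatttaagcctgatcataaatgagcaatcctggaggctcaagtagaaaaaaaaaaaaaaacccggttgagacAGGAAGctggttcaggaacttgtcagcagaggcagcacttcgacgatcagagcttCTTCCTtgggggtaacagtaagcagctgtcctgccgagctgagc
Izumo1r (chr9:14903718-14904017, minus strand): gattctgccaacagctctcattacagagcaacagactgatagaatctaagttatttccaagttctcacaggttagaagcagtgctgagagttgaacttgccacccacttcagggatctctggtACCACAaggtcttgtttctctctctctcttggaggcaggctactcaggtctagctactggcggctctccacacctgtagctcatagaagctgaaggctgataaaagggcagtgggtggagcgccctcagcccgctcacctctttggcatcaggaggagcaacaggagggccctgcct
Fasl (chr1:161788446-161788745, minus strand): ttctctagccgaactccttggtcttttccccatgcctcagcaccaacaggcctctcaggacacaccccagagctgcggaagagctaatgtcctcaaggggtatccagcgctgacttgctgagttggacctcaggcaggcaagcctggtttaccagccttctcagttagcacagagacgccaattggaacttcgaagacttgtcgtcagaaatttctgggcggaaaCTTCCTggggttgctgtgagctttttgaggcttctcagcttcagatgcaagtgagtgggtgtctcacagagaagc
Bcl2a1b (chr9:89199023-89199322, plus strand): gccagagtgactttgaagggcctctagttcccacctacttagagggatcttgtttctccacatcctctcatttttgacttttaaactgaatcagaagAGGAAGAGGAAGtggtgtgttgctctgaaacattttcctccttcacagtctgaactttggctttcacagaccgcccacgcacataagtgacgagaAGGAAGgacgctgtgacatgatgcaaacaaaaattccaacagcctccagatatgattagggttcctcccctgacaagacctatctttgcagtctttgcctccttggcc

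The AGGAAG letters occurred in the windows of Cd247 (2 matches), Slamf1 (2), Fasl (1) and Bcl2a1b (3), and the TGTGGT letters in that of Izumo1r (1). The printed Themis window held no match to either. Over all 35 windows, 20 (57.1%) held AGGAAG, against 35.4% of the 32851 promoter windows of the same length in the table. TGTGGT occurred in 4 of the 35 (11.4%), against 16.8% of all windows. The core CTTTGA of TCF and LEF factors occurred in 6 (17.1%, against 16.0% of all). The E-box CAGGTG was found in 7 (20.0%, against 20.2%). The letters AGATAA, bound by factors of the GATA family, were present in 1 (2.86%, against 11.2%). All 5 motifs were searched on both strands, and no AGGAAG match overlapped a TGTGGT match in these windows. Several windows overlap others of the same gene or of a neighbouring gene, so the same site could count in more than 1 window. The Tmie window and both Als2cl windows share an AGGAAG site, as do 2 of the Gm28809 windows. These are letter matches, not sites shown to be bound.

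The labels were checked against marker genes. All 12 T cell markers had a peak in each naive T, Th2, spleen and thymus library, against 10 and 9 in the ILC2 libraries, and their summed tallest peaks came to between 21281 and 33632 tags in T cells and 6794 and 7457 in ILC2s. In ILC2s the T cell markers with the tallest peaks were the receptor beta constant genes, Trbc1 and Trbc2, each with 2371 and 2607 tags. Their values were equal in every library, as were those of Cd3d and Cd3g in every T cell library. The sums therefore repeat these values, and the repeated Trbc value makes up most of each ILC2 sum. Of 9 ILC2 markers, 8 had a peak in both ILC2 libraries. Each Th2 library had a peak at 6 of them, and each naive T, spleen and thymus library at 5. Il1rl1 had 919 and 180 tags in the naive T libraries, Rora 1304 and 333, and Klrg1 141 and no peak. Il17rb (154 and 249), Gata3 (1480 and 1849) and Arg1 (no peak and 64.2) went the other way. Th2 libraries had 1512 and 1089 tags at Il1rl1. What this means for the naive T label was not tested. The thymus library had a peak at all 8 thymocyte markers, including Rag1 (2284 tags), Cd8a (1811) and Cd8b1 (3767). Rag1 and Cd8a had no peak in any other library, and Cd8b1 had one in lymph node naive T cells (104 tags) and in spleen (82.0). Its label says CD4+ but does not say whether cells that also carried CD8 were removed. B cell, myeloid, natural killer and epithelial markers summed to at most 1546.5, 506, 679 and 371 tags. Among them Ms4a1, Lyz2, Csf1r, Ncr1 and Scgb1a1 had no peak in any library. Cd79a had a peak in all 8, from 499 tags in lymph node Th2 cells to 1392 in lymph node naive T cells. Cd14, Csf3r, Eomes and Epcam also had a peak in all 8. Libraries held between 11870820 and 24945548 tags, and the authors estimated that peaks held 28.7% and 29.3% of the tags of Th2 cells and between 37.3% and 53.7% of those of the other libraries. Only the 2 Th2 libraries, the 2 ILC2 libraries and the lavage naive T library had peaks on chromosome Y, between 2 and 5 each, and the other 3 libraries had 0.

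The 224 regions were mostly modest peaks away from promoters. Their length ran from 1410 to 44647 bp with a median of 2951 bp, against 3838 bp for the 11669 regions called in all 6 libraries. A protein-coding or receptor constant gene overlapped 116 of them (51.8%), against 86.7% of the regions called in all 6, and a promoter window overlapped 12.5%, against 63.6%. For 98 further regions the nearest such gene lay within 100 kb, and for 10 it lay farther away. A gene is named below for its position alone, as distal elements may act on others. Peak height is the authors' normalized tag count, the tags in a peak scaled to 10000000 tags in the library. Peaks vary in length and long peaks collect more tags, so heights are compared between libraries at one region rather than between regions. Where regions are called tall or ranked by height below, their length was not taken into account. The geometric mean height over the 4 T cell libraries had a median of 103 tags, against 188 for the regions called in all 6, with 137 regions under 120 tags and 30 at 240 tags or more. Heights ran from 39.3 to 1655 tags (median 133) in lavage and 38.2 to 3961 (median 144) in lymph node naive T cells, and from 36.8 to 1346 (median 75.8) and 37.9 to 1375 (median 75.4) in Th2 cells. Where called, they ran from 39.2 to 1438 (median 121) in spleen and from 39.9 to 4095 (median 158) in thymus. These heights, and those in the sentences below, are the authors' values without further scaling. Both Th2 heights lay below both naive T heights in 134 of the 224 regions (59.8%) on that scale, as they did in 74.3% of the 11996 regions called in the 4 naive T and Th2 libraries. After each library was centred on its median over shared regions, as in the test below, the count was 62 (27.7%), so the order of Th2 and naive T cells at single regions is read after centring. In such bulk samples, fewer cells of a type that carry the mark and less mark per cell cannot be told apart.

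Distances from the regions of the set to the nearest peak of ILC2s varied widely, and they were not measured for other regions. The nearest ILC2 peak was between 997 and 233177 bp away, with a median of 12364 bp. It lay within 2500 bp of 15 regions, from there up to 10 kb from 85, 10 to 50 kb from 84 and farther than 50 kb from 40. Of the 214 regions with a gene, 178 (83.2%) had a nearest gene that also held another region called in both ILC2 libraries, against 49.4% of the 11821 regions with a gene that were called in the 4 naive T and Th2 libraries. Counting every merged region, the nearest gene had a median of 4 regions for the set and 2 for those 11821. A promoter window overlapped 12.5% of the set and 62.2% of the 11996 regions called in the 4 libraries. The other region of a gene can thus be its promoter more often for the set, and the 2 shares count unlike regions. The header minimum was between 39.9 and 40.4 tags per 10000000 tags, and between 1.05% and 3.62% of the peaks of a library were listed below it, down to 34.5 tags (36.1 and 35.9 in the ILC2 lists). A region without an ILC2 peak is one in which no peak was listed, which does not mean that the mark was absent. No candidate peak was removed by the background filters in either ILC2 library, per the file headers.

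The edge of the rule was narrow for low peaks. A further 103 regions were called in all 4 T cell libraries and in 1 ILC2 library, which was that of the lavage for 46 and that of the lymph node for 57, with ILC2 heights from 37.7 to 122.7 tags and a median of 50.8. The 3 regions with the lowest T cell height that still met the rule were nearest to Il4ra (36.8 tags in lavage Th2 cells), Apex2 and Cxcr4 (37.9 tags each in lymph node Th2 cells). The 3 with the lowest single ILC2 peak just outside it were nearest to Nyap1 (37.7 tags), Ubac2 (38.5) and Rilpl1 (38.5). Among regions left out for 1 ILC2 peak, the tallest in T cells was nearest to Gpr174, where naive T cells had 893 and 857 tags, Th2 cells 979 and 749 and lymph node ILC2s 64.4. Il21r, the receptor for a follicular helper cytokine, and Icos, a costimulatory receptor, were left out in the same way, with 42.9 tags in lavage ILC2s and 59.6 in lymph node ILC2s. A further 273 regions had a peak in 3 of the 4 T cell libraries and in no ILC2 library, and the library without the peak was the lymph node naive T library in 128 of them. If every peak had to reach 80 tags, 152 regions met the rule, of which 66 matched one of the 224, and with the same number of peaks taken from every library, 540 did, matching 133. Of the 30 regions at 240 tags or more, 28 were matched under each of these settings.

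**Figure D1:**
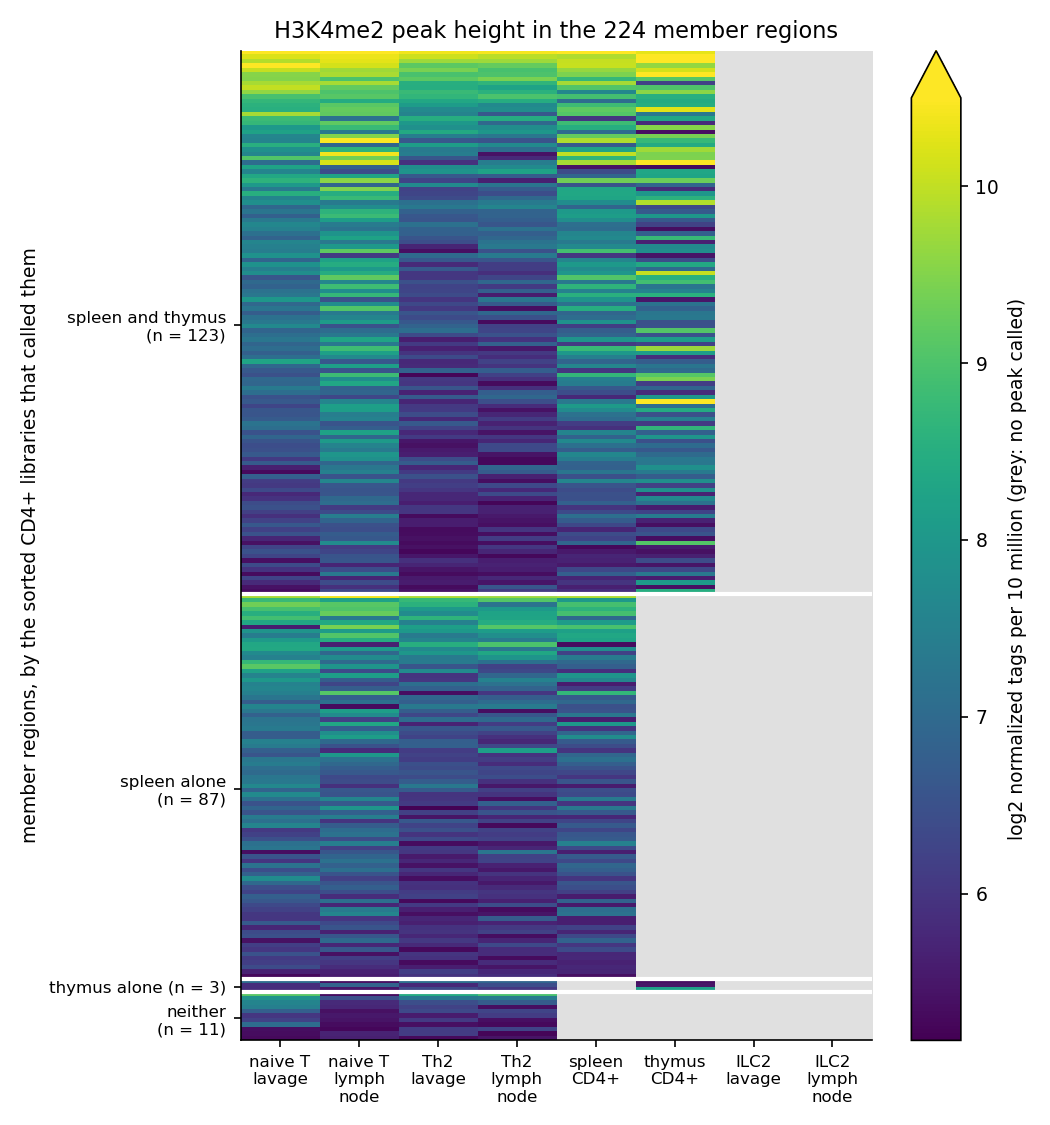
Heat map of the log2 normalized tag count per 10000000 tags of the 224 regions (rows) in the 8 H3K4me2 libraries (columns), with grey where no peak was called. Rows are grouped by the calls in sorted spleen and thymus CD4+ cells, 123 in both, 87 in spleen alone, 3 in thymus alone and 11 in neither, and ordered by mean height within a group. The ILC2 columns are grey throughout because the regions were chosen that way.

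Regions of the T cell receptor complex and its coreceptors had some of the highest tag counts of the set and were also long. The Cd247 region and the taller Cd6 region were 44647 and 22436 bp long, against a median of 2951 bp in the set. Of 40 regions nearest to the 19 genes of that list, 6 (15%) met the rule, against 0.804% of all regions. Among regions called in all 4 T cell libraries this was 31.6% on the list, against 1.87% overall of such regions. All 6 were also called in spleen and thymus, as were 54.9% of the 224 and 93.8% of all regions called in the 4 libraries. The 6 lay at Cd247, Cd4, Cd28, Cd2 and, with 2 regions, Cd6. The region at Cd247, which encodes the zeta signalling chain of the receptor, had 1655 and 3961 tags in the naive T libraries, 1346 and 1375 in the Th2 libraries, 1438 in spleen and 1270.2 in thymus (chr1:165785313-165829960, 44647 bp long). The lowest of the 6 libraries was thymus, and lymph node naive T cells stood above the others. The gene was also marked in ILC2s, where 2 of its 3 regions were called in both libraries and the nearest ILC2 peak lay 3509 bp from the region.

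Cd4, the coreceptor for class II molecules, had 946 and 1251 tags in the naive T libraries, 843 and 841 in the Th2 libraries, 1048 in spleen and 2058 in thymus (chr6:124880422-124889763). The thymus library was the highest. The Th2 values were below the naive T values as deposited and above them after centring, with a log2 difference of 0.25 ± 0.18 (SE, n = 2 against 2), so no order is given. It was the only region nearest to Cd4, and the nearest ILC2 peak lay 13577 bp away. Inside the gene or within 2000 bp of it, lavage ILC2s had a peak of 40.1 tags and lymph node ILC2s had none. Cd28, the main costimulatory receptor of naive T cells, had 730.1 and 507 tags in the naive T libraries, 574 and 687 in the Th2 libraries, 424 in spleen and 543 in thymus (chr1:60771106-60782565), and the Th2 values lay between the naive T values as deposited and above them after centring. Of the 6 regions nearest to Cd28, 2 were called in both ILC2 libraries, and the nearest ILC2 peak lay 8560 bp away. The tallest peak at Cd28 had 238 and 134 tags in ILC2s. Cd6, a scavenger-type surface receptor that tunes T cell receptor signals, had no region called in both ILC2 libraries. Its taller region had 1605 and 1135 tags in the naive T libraries, 572 and 608 in the Th2 libraries, 1055 in spleen and 793 in thymus (chr19:10809019-10831455), and the other had 1035 and 598 tags in the naive T libraries, 361 and 308 in the Th2 libraries, 530.5 in spleen and 521 in thymus. In both Cd6 regions the lavage naive T library was the highest of all 6. After centring both naive T values lay above both Th2 values at the taller region, whereas the groups overlapped at the other. The Cd2 region, 37178 bp from that adhesion receptor gene, was lower, with 264 and 119 tags in the naive T libraries, 209.5 and 152 in the Th2 libraries, 94.6 in spleen and 122 in thymus.

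The T cell receptor signalling list held 13 of these regions among 202 (6.44%, against 0.804% of all), nearest to 10 of its 44 genes. Of the 93 on this list that were called in all 4 T cell libraries this was 14.0%, against 1.87% of all such regions. Of the 13, 8 were called in spleen and thymus, 4 in spleen alone and 1 in thymus alone. The shares of these classes were 54.9%, 38.8% and 1.34% of the 224. Over all regions called in the 4 T cell libraries they were 93.8%, 5.44% and 0.233%. Themis, which encodes a protein needed for thymocyte selection, had 3 of its 4 regions in the set and none called in both ILC2 libraries. At its promoter region the heights were 1197 and 1294 tags in the naive T libraries, 1093 and 992 in the Th2 libraries, 932 in spleen and 1920 in thymus (chr10:28666743-28678345) with thymus the highest. Th2 values were below the naive T values as deposited and above them after centring. Another region inside the gene had 447 and 144 tags in the naive T libraries, 358 and 352 in the Th2 libraries, 63.9 in spleen and 325 in thymus, and there lymph node naive T cells and spleen were low together. The last had 91.1 and 79.2 tags in the naive T libraries, 102 and 124 in the Th2 libraries, 55 in spleen and 254 in thymus, and both Th2 libraries lay above both naive T libraries before and after centring.

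Sh2d1a encodes SAP, the adaptor that carries signals of the SLAM receptors. Its single region on chromosome X had 743 and 909 tags in the naive T libraries, 498 and 516 in the Th2 libraries, 703 in spleen and 1493 in thymus. The thymus was the highest, and the naive T and Th2 values overlapped after centring (log2 difference -0.08 ± 0.17). Lat, the membrane scaffold that gathers signalling proteins below the receptor, had a region 4412 bp away with 418 and 348 tags in the naive T libraries, 329.8 and 356 in the Th2 libraries, 135 in spleen and 345 in thymus, and spleen was the lowest library. Among kinases, Fyn had 2 regions, both called in spleen and not in thymus, and Prkcq, encoding protein kinase C theta, had 1 with 151 and 391 tags in the naive T libraries, 113 and 117 in the Th2 libraries, 264 in spleen and 103 in thymus. The regions nearest to Ptpn6, encoding a tyrosine phosphatase, and to Nfatc3 were called in spleen and thymus, whereas those nearest to Nfatc1 and to Cblb, a ubiquitin ligase that restrains T cell activation, were called in spleen alone. Nfatc1, a calcium-responsive transcription factor gene, lay 4933 bp from a region with 171 and 533 tags in the naive T libraries, 162 and 223 in the Th2 libraries and 326 in spleen, with no peak called in thymus, and lymph node naive T cells were the highest library. The region 60265 bp from Rasgrp1, an activator of Ras, was the only one on this list called in thymus alone, with 44.7 tags.

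Costimulation and follicular helper genes gave 9 of 101 regions (8.91%, against 0.804% of all), nearest to 7 of 26 genes. Of the 38 on this list that were called in all 4 T cell libraries this was 23.7%, against 1.87% of all such regions. Cd40lg, whose product is the T cell signal that licenses B cells and dendritic cells, was the tallest region of all 224 that the thymus lacked. It had 891 and 1322 tags in the naive T libraries, 905 and 826 in the Th2 libraries and 924 in spleen, with no peak called in thymus (chrX:57210055-57223996). Of the 7 regions nearest to Cd40lg, 2 were called in both ILC2 libraries. Slamf1, a SLAM family receptor, had 2 regions in the set, and none of its 5 was called in both ILC2 libraries. At its promoter region the values were 1047 and 853 tags in the naive T libraries, 685 and 495 in the Th2 libraries, 808 in spleen and 1118 in thymus. The naive T and Th2 values overlapped after centring (log2 difference -0.08 ± 0.35). Its other region had 186 and 78 tags in the naive T libraries, 137 and 146 in the Th2 libraries and 48.5 in spleen, with no peak called in thymus.

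Izumo1r encodes a folate receptor family protein on the surface of regulatory and follicular helper T cells. The region over its promoter had 888 and 896 tags in the naive T libraries, 365 and 404 in the Th2 libraries, 879 in spleen and 74.1 in thymus (chr9:14897873-14908675). Th2 cells lay below naive T cells before and after centring, and the thymus value was the lowest of the 6. Pou2af1, a transcriptional coactivator gene with roles in B cells and follicular helper cells, had a promoter region with 157 and 276 tags in the naive T libraries, 99.1 and 40.4 in the Th2 libraries, 233 in spleen and 90.4 in thymus, and lymph node Th2 cells were at the minimum. A region between Cd28 and Ctla4, 39862 bp from Ctla4, the inhibitory receptor gene, had 558 and 40.6 tags in the naive T libraries, 352 and 494 in the Th2 libraries, with no peak called in spleen or thymus (chr1:60856650-60869163). It was tall in the lavage naive T library and both Th2 libraries and barely met the minimum in lymph node naive T cells. Il2rb, a receptor subunit for interleukin-2 on the regulatory T cell list, had 1 region with 218 and 72.7 tags in the naive T libraries, 41.1 and 53.1 in the Th2 libraries and 63.9 in spleen, with no peak called in thymus, high in the lavage naive T library alone.

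**Figure D2:**
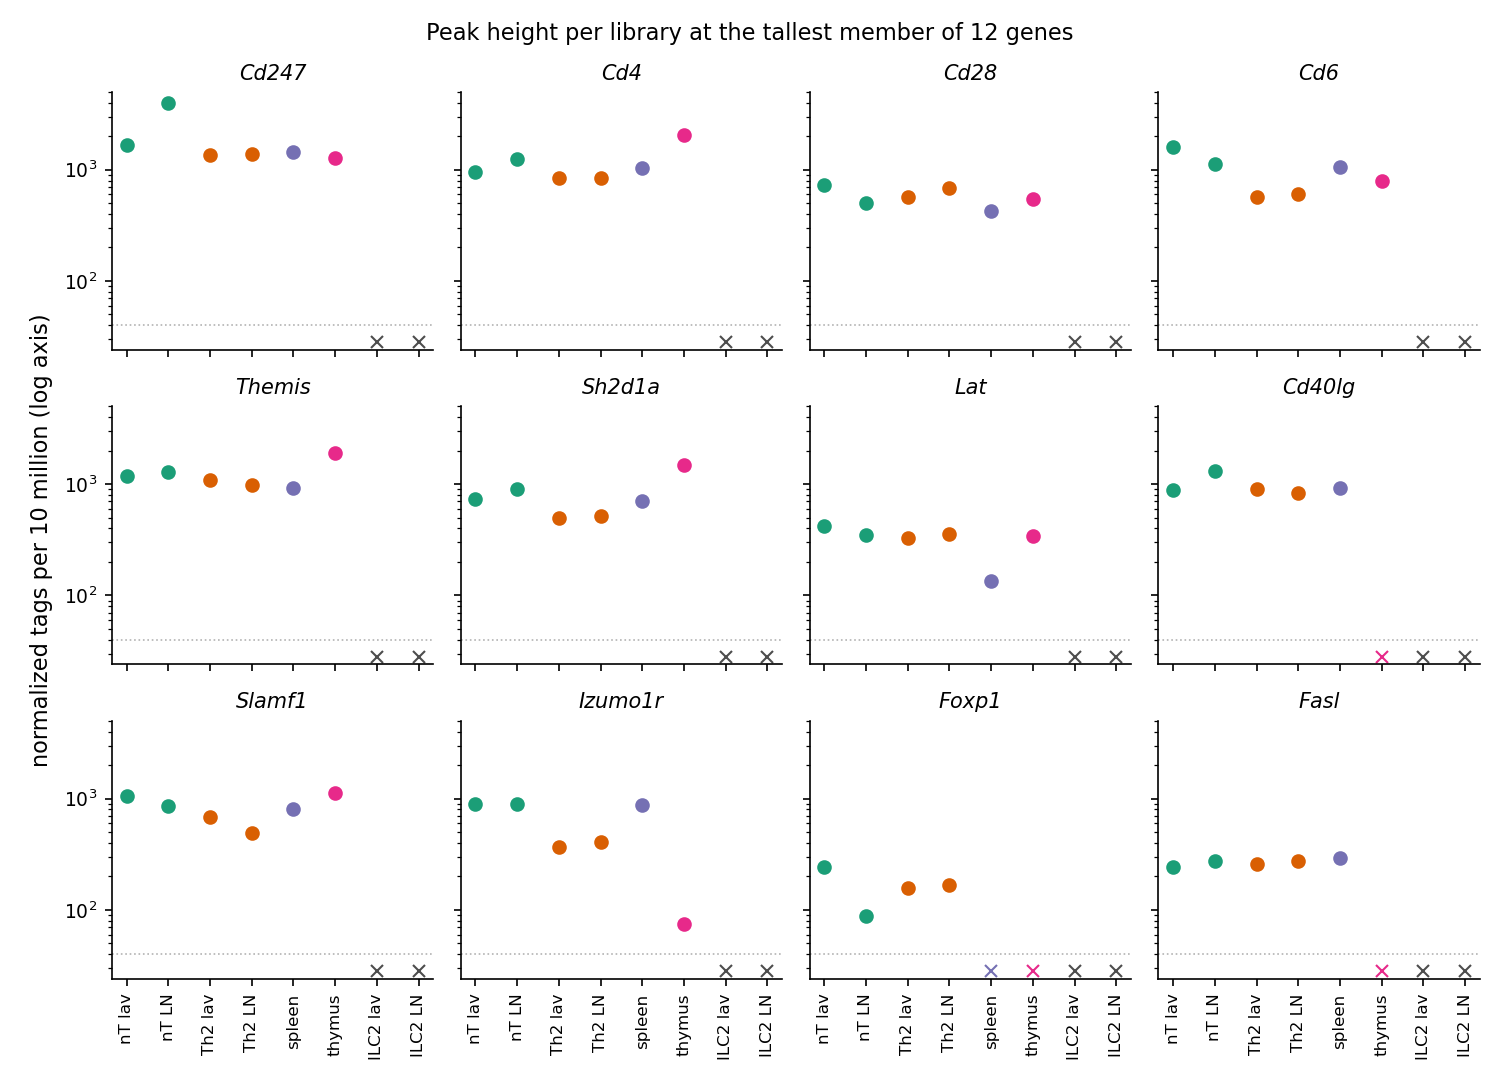
Normalized tags per 10000000 tags (log axis) at the tallest region of 12 genes in naive T (nT), Th2 and ILC2 libraries of the lavage (lav) and lymph node (LN) and in spleen and thymus CD4+ cells, 1 point per library. Crosses mark libraries without a called peak and the dotted line marks 40 tags, about the minimum for a call. Cd40lg and Fasl had no thymus peak, Foxp1 had neither, and Izumo1r was at 74.1 tags in thymus.

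Transcription factor genes of the T lineage gave 2 of 132 regions (1.52%, against 0.804% of all), both nearest to Ets1. Of the 50 on this list that were called in all 4 T cell libraries this was 4%, against 1.87% of all such regions. The region 17972 bp from Ets1 had 227 and 162 tags in the naive T libraries, 141 and 166 in the Th2 libraries, 218 in spleen and 949 in thymus, and the thymus stood far above the other 5. The other Ets1 region had 318 and 98.7 tags in the naive T libraries, 54.9 and 75 in the Th2 libraries, 118 in spleen and 107 in thymus, with the lavage naive T library highest. The list of naive and recirculating T cell genes gave 6 of 160 (3.75%), 4 inside Foxp1, a factor that maintains T cell quiescence, and 2 near Bach2, a repressor of effector programmes. The tallest Foxp1 region had 241 and 88.6 tags in the naive T libraries, 158 and 168 in the Th2 libraries, with no peak called in spleen or thymus, while the other 3 were called in spleen and thymus. Of the 27 regions nearest to Foxp1, 8 were called in both ILC2 libraries. The Bach2 region 70619 bp away had 156 and 420.1 tags in the naive T libraries, 84.2 and 48 in the Th2 libraries, 373 in spleen and 375 in thymus, and the Th2 pair lay below the naive T pair before and after centring. The other had 147 and 113 tags in the naive T libraries, 43 and 51.4 in the Th2 libraries and 123 in spleen, with no peak called in thymus.

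Regulatory T cell genes gave 2 of 57 regions (3.51%, against 0.804% of all), the Ctla4 and Il2rb regions above. Th1 and cytotoxic genes gave 1 region of 86 (1.16%), at the promoter of Fasl, which encodes the death ligand of activated T cells. It had 244 and 274 tags in the naive T libraries, 259 and 276 in the Th2 libraries and 293 in spleen, with no peak called in thymus (chr1:161784715-161789362). The 5 libraries that called it lay within 244 to 293 tags, and 8 of the 12 regions nearest to Fasl were called in both ILC2 libraries. None of the 83 regions nearest to type 2 and ILC2 genes met the rule, a count near the background of 0.804%. Of those 83, 72 (86.7%) were called in both ILC2 libraries, against 69.7% of all 27854. None met it among the 10 regions of B cell, 16 of myeloid, 21 of natural killer, 9 of airway epithelium and 16 of housekeeping genes. With 0.804% of all regions meeting the rule, these counts are near the background as well. In all, 36 of the 224 regions, nearest to 25 genes, fell on a list.

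Several tall regions lay in gene deserts. In the set, 3 regions were nearest to the predicted gene Gm52008 on chromosome 12, between 724 and 774 kb from Bcl11b, the T lineage commitment factor gene, for which a far downstream enhancer is known. The one at chr12:107118265-107136070 had 781 and 519 tags in the naive T libraries, 442 and 379.9 in the Th2 libraries, 199 in spleen and 764 in thymus. The next, at chr12:107137693-107142509, had 219 and 354 tags in the naive T libraries, 65.5 and 59 in the Th2 libraries, 252 in spleen and 1053 in thymus, and naive T cells lay above Th2 cells there before and after centring. The one at chr12:107180070-107186018 had 387 and 564 tags in the naive T libraries, 279 and 208 in the Th2 libraries, 454 in spleen and 357 in thymus. All 3 were called in both spleen and thymus, and the thymus was the tallest library in the middle one. Of the 10 regions with no gene within 100 kb, 7 were called in spleen alone and 3 in both. Those classes held 38.8% and 54.9% of the 224, and 5.44% and 93.8% of all regions called in the 4 T cell libraries. The tallest of the 10 was at chr15:60184829-60189179, 233177 bp from any ILC2 peak, with 489 and 522 tags in the naive T libraries, 267 and 260.3 in the Th2 libraries and 391 in spleen, with no peak called in thymus. The next overlapped the noncoding gene Gm19585, 315 kb from Satb1, a chromatin organiser of T cells, with 364 and 612 tags in the naive T libraries, 214 and 308 in the Th2 libraries and 488 in spleen, with no peak called in thymus. A region 164 kb from Gata3, the Th2 and ILC2 master regulator, had 183 and 215 tags in the naive T libraries, 165 and 244 in the Th2 libraries and 168 in spleen, with no peak called in thymus (chr2:9687378-9692757). The nearest ILC2 peak to it was 4727 bp away. A region at chr6:41117921-41122632 overlapped the variable segments Trbv12-2 and Trbv13-2 of the receptor beta locus and had 230.3 and 403 tags in the naive T libraries, 166 and 134 in the Th2 libraries, 309.5 in spleen and 850.5 in thymus, with the thymus highest.

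On chromosome X, which held 6 of the 224 regions, 1 overlapped Xist, the RNA gene of the inactive X (nearest coding gene Tsx, 48595 bp away). It had 197 and 727 tags in the naive T libraries, 173 and 155 in the Th2 libraries, 606 in spleen and 681 in thymus. The 3 highest libraries, lymph node naive T cells, spleen and thymus, were the 3 without a peak on chromosome Y, so at this region a difference between cell types and the sex of the mice, which was not stated, cannot be told apart. Without chromosomes X and Y, 218 regions met the rule.

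Of the 17 genes nearest to more than 1 region, Galnt9, a glycosyltransferase gene, was the only one outside the lists with no region called in both ILC2 libraries, and both of its regions were in the set. Arhgef10, Ehd3, Heg1, Jarid2, Rab3ip, Sh3rf1 and Zfp281 had 2 each, beside other regions that ILC2s shared. Other tall regions without a thymus peak were at Bcl2a1b, a survival gene of the Bcl2 family, with 441 and 304 tags in the naive T libraries, 431 and 541 in the Th2 libraries and 266 in spleen, with no peak called in thymus, and at Ifi214, an interferon-inducible gene, with 650.3 and 555 tags in the naive T libraries, 382 and 147 in the Th2 libraries and 486 in spleen, with no peak called in thymus. Bcl2a1b belongs to a cluster of near-identical copies, so tags there may be shared between copies.

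Read in sorted CD4+ cells, 123 of the 224 regions (54.9%) were called in spleen and thymus, 87 (38.8%) in spleen and not thymus, 3 (1.34%) in thymus and not spleen and 11 (4.91%) in neither. Over all 11996 regions called in the 4 naive T and Th2 libraries the shares were 93.8%, 5.44%, 0.233% and 0.534%. With 1 library per tissue this difference has no test. The thymus library also had the thymocyte markers given above (8 of 8, against 1 to 5 in the other libraries), whose part in these classes was not tested. The T cell peaks of the set were lower than the others, so shares are also given within bins of mean height. Under 60 tags, 25% of 20 regions of the set and 24.1% of 133 other regions were called in spleen alone. The shares parted above that, with 54.3% against 17.4% from 60 to 80 tags, 45.1% against 9.11% from 80 to 120, 28.1% against 3.57% from 120 to 240 and 30% against 1.68% at 240 tags or more. When a peak counted in spleen or thymus only if it covered 50% of the region, 93 were called in both and 86 in spleen alone. Without the lymph node naive T library the rule gave 361 regions. Of these, 128 (35.5%) were called in both tissues, 100 (27.7%) in spleen alone and 133 in thymus alone or neither. Of all regions called in the remaining T cell libraries, 88.7% were called in both tissues and 5.72% in spleen alone. The shares of these classes in the set thus depend on that library.

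**Figure D3:**
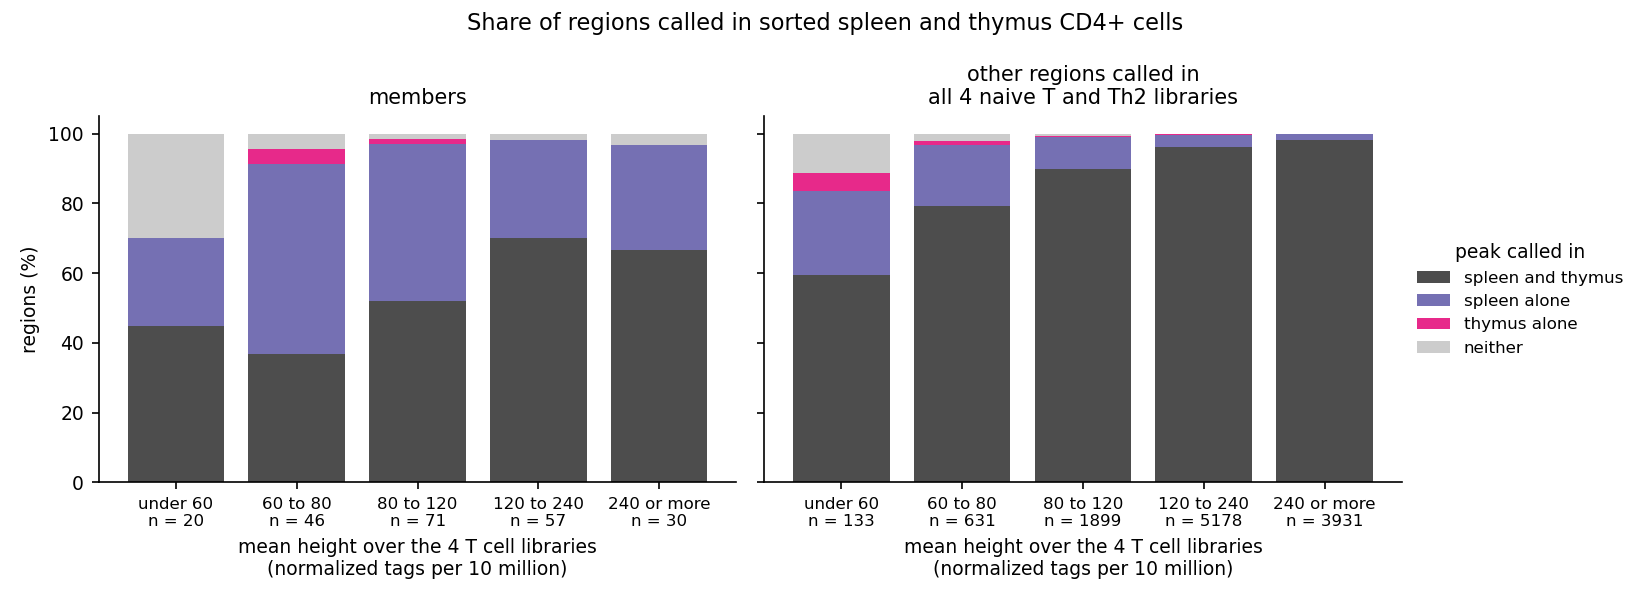
Stacked bars of the percentage of regions called in spleen and thymus, spleen alone, thymus alone or neither, by geometric mean height over the 4 naive T and Th2 libraries, for the 224 regions (left) and the other 11772 regions called in those 4 libraries (right), with the number of regions under each bar. At 240 tags or more, 30% of the set and 1.68% of the others were called in spleen alone.

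The 11 regions called in neither tissue were led by the Ctla4 and Foxp1 regions above and by one near Tmem163 (190.2 and 55.7 tags in the naive T libraries, 87.9 and 105 in the Th2 libraries, with no peak called in spleen or thymus). The median of the 11 was 110 tags in lavage naive T cells and 45.5 in lymph node naive T cells, and 69.8 and 69.1 in Th2 cells. The 3 called in thymus alone were nearest to B4galt4, Rasgrp1 and Tnfsf11, the last encoding the cytokine RANKL, and were all low, with a median of 44.7 tags in thymus. The regions called in both tissues overlapped a gene in 57.7% of cases and those called in spleen alone in 47.1%. Their median heights in naive T cells were 134 and 204 tags for the regions called in both and 140 and 111 tags for those called in spleen alone.

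In the 123 regions called in both tissues, thymus and spleen heights often differed. The thymus was at least 2-fold higher in 28 (22.8%) and at least 2-fold lower in 20 (16.3%), against 4.33% and 4.64% of the 11251 regions called in both tissues and the 4 T cell libraries. The median log2 ratio of thymus to spleen was 0.02 in the set and 0.29 over those 11251. The highest ratios were at Hdac7, a histone deacetylase of thymocytes (159.9 tags in spleen and 4095 in thymus, where the peak was 25685 bp long against 2696 bp), Prrc2b (60.1 and 409) and Sh3rf1 (58.7 and 359.8). The lowest were at Izumo1r (879 and 74.1), Ifi27l2a (455.0 and 56.7) and Atp1b3 (320.3 and 55.7). Peak lengths moved with these heights, and no replicate exists for either tissue.

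The 2 naive T libraries did not resemble each other most. Across the 210 regions of the set called in spleen, Spearman's rho of height with spleen was 0.93 for lymph node naive T cells, 0.49 for lavage naive T cells and 0.33 and 0.30 for Th2 cells. Across all 224, lavage naive T cells had a rho of 0.70 with lavage Th2 cells, 0.56 with lymph node Th2 cells and 0.46 with lymph node naive T cells. Over all regions called in spleen (11904), rho with spleen was 0.98 for lymph node and 0.78 for lavage naive T cells. For Th2 cells it was 0.69 and 0.68, so all 4 values were above those in the set. Over all 11996 regions lavage naive T cells had a rho of 0.91 with lavage Th2 cells and 0.87 with lymph node Th2 cells. With lymph node naive T cells it was 0.76. These correlations describe regions that share libraries, depth and peak length, and regions are not replicates. In the set, 10 regions (4.46%) were at least 4-fold higher in lymph node than in lavage naive T cells and 3 (1.34%) at least 4-fold lower as deposited, against 0.975% in each direction over all 11996. The 3 regions described next were chosen after their values were seen. Near Gpr15, a homing receptor gene, the region had 329.8 and 49.6 tags in the naive T libraries, 366 and 505 in the Th2 libraries and 40.6 in spleen, with no peak called in thymus, with lavage naive T cells beside Th2 cells. The promoter region of Als2cl had 192 and 1681 tags in the naive T libraries, 98.5 and 92.7 in the Th2 libraries, 928 in spleen and 431 in thymus, and lymph node naive T cells stood beside spleen. Near Aff3, a nuclear factor gene, it was 132 and 1150.1 tags in the naive T libraries, 61.1 and 172 in the Th2 libraries, 875 in spleen and 1441 in thymus, with the same libraries high and thymus higher still.

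**Figure D4:**
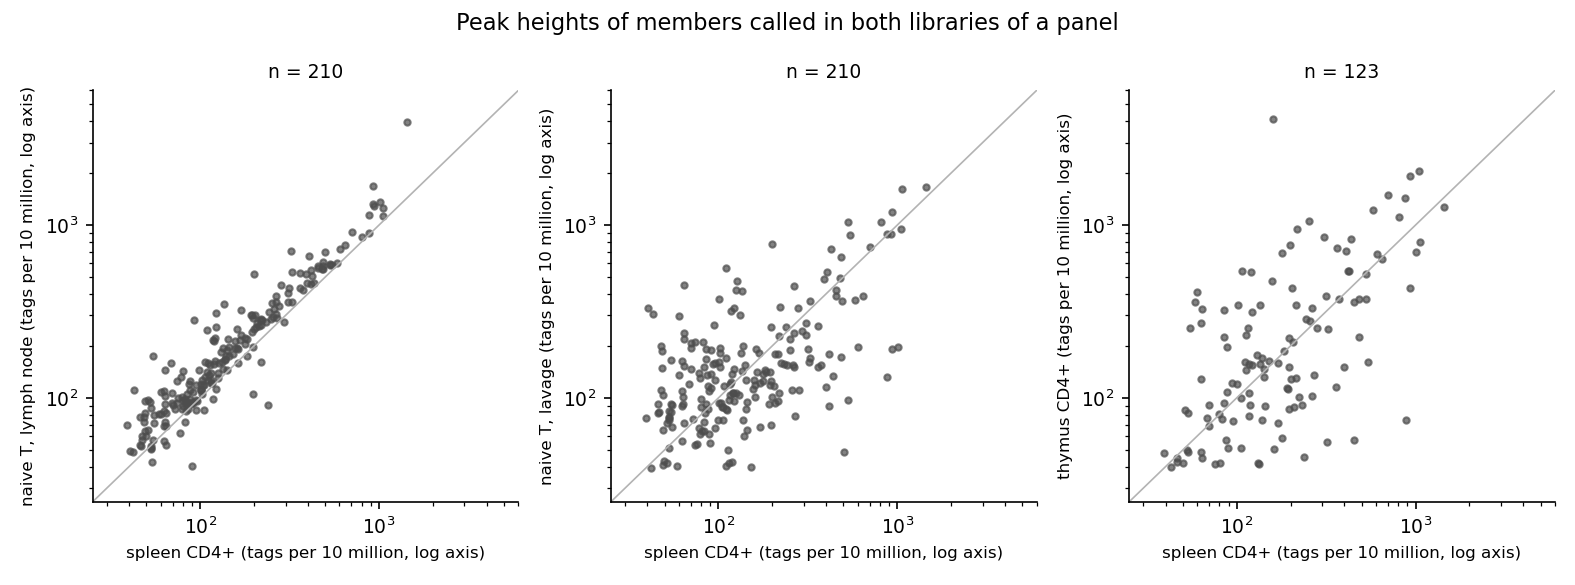
Normalized tags per 10000000 tags (log axes), 1 point per region of the set called in both libraries of a panel: lymph node naive T cells against spleen (n = 210), lavage naive T cells against spleen (n = 210) and thymus against spleen (n = 123). Grey lines mark equal heights. The first panel is the tightest, with a rho of 0.93, against 0.49 in the next.

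Whether peak height differed between Th2 and naive T cells was tested over all 11996 regions with limma on log2 heights, after centring each library on its median over the regions called in all 8 libraries. No region of the set was called at an adjusted p under 0.05 in either direction, against a background of 0% higher and 0% lower, and the smallest adjusted p was 0.27 in the set and 0.17 over all regions (limma, Benjamini-Hochberg). At an unadjusted p under 0.05, 11 of the 224 (4.91%) were higher and 26 (11.6%) lower in Th2 cells, against 5.27% and 5.59% of all regions. Per kb of peak this order turned, with 28 of the set higher and 11 lower, and 718 and 266 of all 11996. The lean of the set towards lower heights in Th2 cells thus depends on how peak length is treated. The median log2 difference was -0.11 in the set and 0.01 over all. Both Th2 heights lay below both naive T heights in 62 of the 224 after centring (27.7%, against 24.3% of all) and above in 40 (17.9%, against 27.9%). Centring raised the contrast by 0.62. The Th2 libraries also had the lowest shares of tags in peaks, and the part of this in the result was not tested. The median difference of the regions on a list was -0.02 for the receptor complex, 0.03 for receptor signalling, -0.27 for transcription factors, -0.42 for naive T cell genes, -0.08 for costimulation, 0.64 for regulatory T cell genes (2 regions) and 0.67 for Th1 and cytotoxic genes (1 region), beside the 0.01 over all regions. Without centring 37 regions of the set were called lower and 1 higher, with 697 and 64 over all. Without the lavage naive T library, which left 1 naive T library assumed to vary like the Th2 pair, 21 were called higher and 19 lower, with 1042 and 334 over all.

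The 5 regions with the smallest p among those lower in Th2 cells were called in spleen and thymus as well, as were 54.9% of the 224. Inside Gramd3 heights were 389.5 and 763 tags for the naive T pair and 75.4 and 49.7 for the Th2 pair, a centred log2 difference of -2.53 ± 0.32 (SE here and below, n = 2 against 2). Inside Pip4k2a, a phosphoinositide kinase gene, they were 533 and 659 tags for the naive T pair and 97.2 and 55.6 for the Th2 pair, a difference of -2.39 ± 0.33. The naive T and Th2 groups did not overlap in either. Near Ankrd55 the difference was -1.59 ± 0.21, at the middle Gm52008 region -1.54 ± 0.21 and inside Itpkb, an inositol phosphate kinase gene needed for thymocyte development, -1.51 ± 0.23. Adjusted p-values of these 5 ran from 0.27 to 0.30 (limma). Per kb of peak the differences were -0.72 at Gramd3, -0.28 near Ankrd55, -0.13 at the Gm52008 region, 0.07 at Pip4k2a and 0.0046 at Itpkb.

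Among regions higher in Th2 cells after centring, the smallest p was 92996 bp from Rpap3, where naive T cells had 41 and 38.2 tags and Th2 cells 69.8 and 76.7, a difference of 1.51 ± 0.37. The region had no peak in spleen or thymus. Inside Mink1, a kinase gene, heights were 210.2 and 125 tags for the naive T pair and 256 and 324 for the Th2 pair, a difference of 1.45 ± 0.44. The difference was 0.67 ± 0.18 at Fasl, 0.70 ± 0.21 near Sp3 and 1.03 ± 0.32 at the lowest Themis region. Before centring the naive T and Th2 heights at Fasl overlapped. Without centring the differences were 0.89 near Rpap3, 0.83 at Mink1, 0.05 at Fasl, 0.08 near Sp3 and 0.41 at Themis, and per kb of peak 0.90, 0.62, 0.35, 0.27 and 0.53. Adjusted p-values of these 5 ran from 0.38 to 0.44 (limma).

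Lymph node and lavage were compared with the cell type as a covariate. No region of the set was called, against a background of 0% higher and 0% lower, with a smallest adjusted p of 0.94 (limma). At an unadjusted p under 0.05, 11 (4.91%) were higher and 21 (9.38%) lower in the lymph node, against 1.44% and 3.38% of all regions. Per kb of peak, 3 of the set were higher and 27 lower, with 75 and 592 over all. The median log2 difference of height was -0.14 against -0.02 over all. Without centring, a step that moved this contrast by -0.26, 4 regions of the set were called higher and 3 lower, with 59 and 93 over all. The smallest p-values among lower regions were near Atp5o and inside Alpk2. Near Atp5o heights were 201 and 60.5 tags for the naive T pair and 158 and 45.5 for the Th2 pair, a difference of -2.02 ± 0.28. Inside Alpk2 they were 299 and 80.8 tags for the naive T pair and 214 and 80 for the Th2 pair, a difference of -1.91 ± 0.31. In both, each lavage library lay above both lymph node libraries. Stard7, Ms4a6d and Ifi214 were next. Near Aff3 the difference was 2.05 ± 0.36, and at Cd9 1.17 ± 0.23. Near Ddr1 heights were 48.5 and 694 tags for the naive T pair and 289.9 and 548 for the Th2 pair, a difference of 2.12 ± 0.63, with the lavage naive T library far below the other 3. Btg1 and Heg1 differed by 1.38 and 1.15. Per kb of peak the differences were 0.49 near Aff3, 0.19 at Cd9, 0.33 near Ddr1, 0.23 near Btg1, 0.32 at Heg1, -0.66 near Atp5o and -0.24 at Alpk2.

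**Figure D5:**
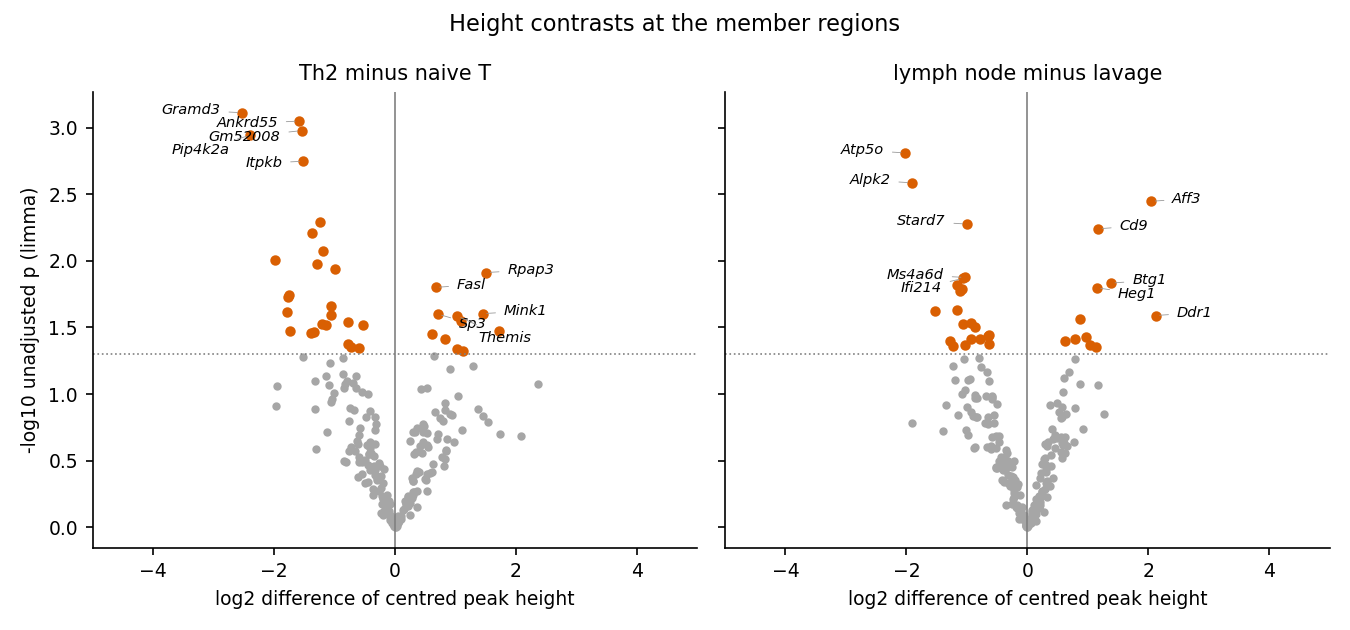
Log2 difference of centred peak height (x) against -log10 of the unadjusted limma p (y) at the 224 regions, for Th2 minus naive T cells (left) and lymph node minus lavage (right), with orange points above the dotted line at p of 0.05. On the left 26 orange points lie below zero and 11 above, on the right 21 and 11, and no region passed an adjusted p of 0.05. Labels name the 5 smallest p-values in each direction.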

How the data were processed

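H3K4me2 chromatin immunoprecipitation libraries, made with a Nextera protocol per the labels' protocols, were given as 8 peak lists, all of whose values are the authors'. Bowtie, HOMER and mm10 are named in the submitters' processing notes. Per the file headers, HOMER called peaks in each library separately with an initial size of 1000 bp, a minimum distance of 2500 bp, stitching of neighbours, an FDR of 0.001, at least 4 times the tags of immunoglobulin G and a set minimum of tags. The deposited signal is the normalized tag count, the tags of a peak per 10000000 tags sequenced. The deposited fold change over immunoglobulin G (a ratio) and the region size, in bp, were copied beside each peak.

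Where a library had several peaks in a region, the tallest gave its height. A spleen or thymus peak counted within 500 bp of a region. Genes were protein-coding or receptor constant intervals of RefSeq GRCm38.p6, which has the coordinates of mm10, and all 242 names on the gene lists matched. Heights were log2-transformed without a pseudocount, since every region tested had a peak in all 4 libraries, centred, and tested with limma 3.58.1 (R 4.3.3, trend on mean height) with Benjamini-Hochberg adjustment over 11996 regions. Other steps used Python 3.11.15. The region rule and the fit were tested on simulated data. The members and the gene lists were chosen with earlier results of these data known. Regions were named where the nearest gene was on a list or nearest to 2 or more regions, for the 10 highest means, the 5 smallest p-values in each direction of each contrast, the 3 tallest of each spleen and thymus class, the 3 nearest each side of the rule and the extreme thymus to spleen ratios, and where a promoter window lay inside. Alternatives covered the merge distance, peak thresholds, overlap, scaling, a pseudocount, gene distance, left-out libraries and, added after seeing the data, chromosomes X and Y. The 2 immunoglobulin G samples were not analysed here.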

Additional observations from a re-analysis of the deposited data

How the results depend on the processing

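The set of regions was sensitive to the peak threshold and to 1 library. With equal numbers of peaks per library, the 14723 highest by tags, 540 regions met the rule, of which 362 were called in spleen and thymus and 147 in spleen alone. That is 27.2%, against 6.27% of all regions called in the 4 T cell libraries. With peaks of at least 80 tags, 49 of 152 were called in spleen alone (32.2%, against 4.45%). Leaving out each library in turn gave between 250 and 361 regions, the highest without the lymph node naive T library. Of these, 128 to 167 were called in both tissues (35.5% to 57.7%) and 91 to 115 in spleen alone (27.7% to 40.8%). Over all regions called in the T cell libraries used, the shares ran from 88.7% to 93.8% and from 5.46% to 6.06%. The cause was not tested.

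Without centring, calls in the Th2 contrast were 1 higher and 37 lower in the set and 64 and 697 over all. In the site contrast they were 4 and 3 in the set and 59 and 93 over all. Leaving out each library, calls in the Th2 contrast ranged from 0 to 21 higher and 0 to 19 lower in the set and from 0 to 1042 and 0 to 334 over all, and were above 0 only without the lavage naive T library. Per kb of peak, Pip4k2a reversed from -2.39 to 0.0723 and Itpkb from -1.51 to 0.0046. Among the alternatives for counts, 94 left the count unchanged or moved it by at most 1.5 times. Many of these are adjusted calls that were 0 in both settings, so they do not show that heights were stable. Leaving libraries out of the site contrast was not run, as no residual degrees of freedom would remain.

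Replicate numbers coincide with the site, and the labels name no shared animal or batch. Deviations of same-numbered libraries correlated at 0.11 over all regions and 0.11 in the set, with only 2 pairs. A replicate block in the Th2 contrast gave 0 calls in either direction. At an unadjusted p under 0.05 (limma), 12 regions of the set were then higher and 30 lower, with 675 and 653 of all 11996. Depth limits low regions most: at the minimum of 40 tags per 10000000 sequenced, a peak rests on 48 to 100 tags.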
